A study of Rattus norvegicus with 6 samples.

Results

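The genes described here are the cytosolic ribosomal proteins, the structural proteins of the ribosomes that translate nuclear-encoded mRNA. Members were all genes with a probe set whose only symbol in the platform annotation began with Rpl or Rps and a digit, or was Rplp0, Rplp1, Rplp2 or Rpsa. Symbols of the S6 kinases and of pseudogenes were left out. This gave 48 genes on 55 probe sets, out of 14217 genes with a probe set of 1 symbol, and for a gene with more than 1 probe set the brightest was used. Of the 48, 15 had Rps symbols (small subunit) and 33 had Rpl symbols (large subunit). Rplp1 and Rplp2, and small-subunit genes such as Rps14 and Rps19, were not among them. A further 36 probe sets carry a ribosomal protein symbol together with other symbols; they are described below as a list, without gene names.

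The arrays measured RNA of retinal ganglion cells, the neurons that send the optic nerve to the brain, from adult male Brown Norway rats. In each of 3 rats pressure had been raised in 1 eye for 10 days by injecting hypertonic saline into an episcleral vein, and the other eye was the control. Ganglion cells of both eyes were back-labelled with Fluorogold, 2000 per eye were taken by laser capture, and their RNA, linearly amplified with the RiboAmp HS kit, was hybridised to 1 Affymetrix array per eye. The labels name the right eye (OD, n = 3) and the left eye (OS, n = 3) of each rat but not which eye had the raised pressure, so each difference below is left minus right within a rat and cannot be read as raised pressure minus control.

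A ribosome is built from a small subunit, which reads the mRNA, and a large subunit, which joins amino acids. Its proteins are made in matched amounts, and most of their mRNAs start with a C followed by a tract of C and T, the terminal oligopyrimidine (TOP) tract, through which growth signals of the mTOR pathway set their translation. Neurons carry ribosomes in the cell body and also in dendrites and axons. Some members have a further known role: Rpl5 and Rpl11 bind the p53 regulator Mdm2 together with 5S ribosomal RNA when ribosome assembly is disturbed, and Rps6 is phosphorylated by the S6 kinases.

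Start-site sequences are shown because the tract is a feature of these genes that played no part in choosing them. Windows of 30 bases, 15 before the start given in the RefSeq promoter table (build GRCr8) and 15 from it on, were read for the 43 of 48 members that matched. This start was that of the RefSeq gene table for 25 of the 43 and lay elsewhere for 18, among them Rpl13a, Rpsa, Rpl35, Rpl5, Rpl34, Rps15a and Rpl3. Capitals mark the longest unbroken run of C and T on the gene's strand. The first 5 genes below varied together across arrays, the next 4 are described singly under the results, and the last 7 are 4 paralogs and the genes they resemble.
Rpl13a (chr1:104748899-104748928, minus strand): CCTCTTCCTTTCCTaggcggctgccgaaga
Rpsa (chr8:128728864-128728893, plus strand): CCTTTCCgcgctaccctggaacgggtccgt
Rpl35 (chr3:43165907-43165936, minus strand): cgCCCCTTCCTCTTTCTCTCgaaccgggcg
Rps23 (chr2:23814502-23814531, plus strand): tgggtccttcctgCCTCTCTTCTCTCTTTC
Rpl5 (chr14:1995211-1995240, minus strand): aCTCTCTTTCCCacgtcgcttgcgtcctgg
Rpl34 (chr2:221962269-221962298, minus strand): CCCCTTCCTTTTCCTCTTCCggggacggtg
Rpl4 (chr8:73566462-73566491, plus strand): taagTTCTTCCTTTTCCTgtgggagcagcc
Rps15a (chr1:181860270-181860299, minus strand): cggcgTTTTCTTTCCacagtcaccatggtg
Rpl21 (chr12:13386139-13386168, minus strand): TTCCTTTCCgccggggcagccatcttccag
Rpl3 (chr7:113507976-113508005, minus strand): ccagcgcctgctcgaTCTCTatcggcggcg
Rpl3l (chr10:14258431-14258460, plus strand): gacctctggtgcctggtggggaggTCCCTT
Rpl39 (chrX:121195882-121195911, minus strand): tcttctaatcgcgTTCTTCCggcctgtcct
Rpl39l1 (chr10:5966607-5966636, minus strand): actgccaggccgTCCCgctatcctggtgtg
Rpl26 (chr10:54109677-54109706, plus strand): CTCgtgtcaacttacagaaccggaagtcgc
Rpl26l1 (chr10:17029014-17029043, minus strand): aaatgtcaTTTCCgggcctgcgcacacacc
Rps27l (chr8:76443643-76443672, plus strand): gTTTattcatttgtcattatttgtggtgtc

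A run of at least 9 bases was present in 22 of the 43 members (51.2%), against 7.51% of 27456 genes with a promoter in the same table. The median longest run was 9 bases in the members and 4 bases over all genes. Rpl34 had the longest, 20 bases. In the 5 matched paralogs (Rpl3l, Rpl7l1, Rpl26l1, Rpl39l1 and Rps27l) the longest run was 3 to 6 bases. Of the genes they resemble, Rpl3, Rpl26 and Rpl39 also had short runs, of 5, 3 and 7 bases. Over the whole 300-base promoter, CTTCCG on either strand, the core of sites for ETS factors, was found in 20 members (46.5%) against 17.4% of all genes. It can overlap a run of C and T. GCCATC on either strand, the core of the YY1 motif, was found in 14 members (32.6%) against 14.7%. TATAAA on the gene's strand, 16 to 40 bases before the start, was found in 2 members, Rplp0 and Rps28 (4.65%), against 1.50%. These are matches of letters relative to the start in that table only.

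**Figure D1:**
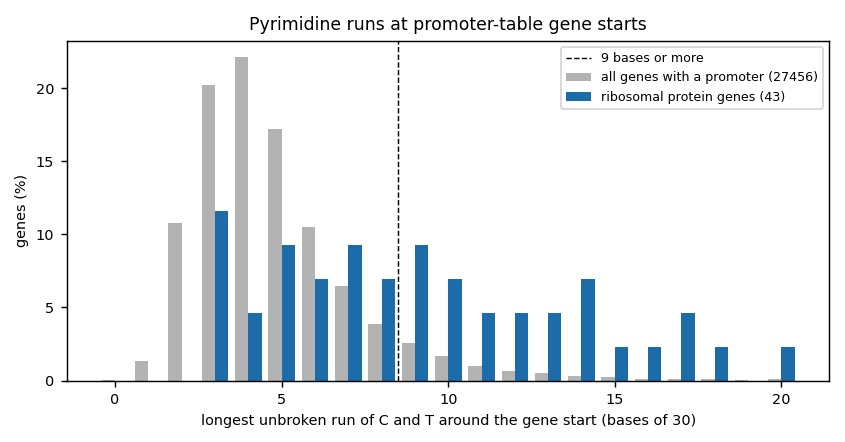
Share of genes (%) by the longest unbroken run of C and T, in bases, within 30 bases around the start in the promoter table, for the 43 matched ribosomal protein genes and for 27456 genes of the promoter table. Runs of 9 bases or more, right of the dashed line, were found in 51.2% of the ribosomal protein genes and 7.51% of all genes; runs over 20 bases are not drawn.

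Array values are intensities scaled by the authors to a common mean and have no absolute unit. A background limit was set on each array at the 95th percentile of 27 bacterial control probe sets taken as not spiked in. It lay between 261 and 591 per array, and 34.8% to 58.1% of all probe sets exceeded it. Of the ganglion cell markers, 14 of 17 were on the array, and 8 exceeded the limit on all 6 arrays. The summed value of the 14 ran from 27806 to 42177 in OD and from 18208 to 25254 in OS, ranges that do not overlap. Markers of other cell types exceeded the limit on all 6 arrays for 4 of 11 amacrine, 3 of 13 photoreceptor, 4 of 11 Mueller glia and astrocyte, 0 of 12 microglia, 0 of 7 pigment epithelium, 1 of 5 vessel and 1 of 4 bipolar genes. Summed amacrine signal was 28288 to 73310 in OD and 13272 to 25558 in OS. Summed pigment epithelium signal was 6946 to 36643 in OD and 2977 to 5240 in OS. In the photoreceptor, Mueller glia and astrocyte, microglia, vessel and bipolar lists the summed ranges of the eyes overlapped. The part of these cells in the results below was not tested. In RNA pooled from captured cells, fewer cells of a type and less RNA per cell cannot be told apart.

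Ribosomal protein signal was above background in every eye. All 48 members exceeded the background limit on at least 1 array, and 29 on all 6. The array of the right eye of rat 1 had 46 members above its limit and that of the left eye 43. Both eyes of rat 2, where the limit was highest, had 35. In rat 3 there were 41 in OD and 40 in OS. Summed over the 48 members, rat 1 had a signal of 282012 in the right and 199396 in the left eye, rat 2 had 142382 and 195240, and rat 3 had 199210 and 333110. The left eye thus held 0.707 times the signal of the right in rat 1, 1.37 times in rat 2 and 1.67 times in rat 3. The sums are weighted to the genes with the highest values, Rpl13a among them. The members' median value was 2307 in the right and 1444 in the left eye of rat 1, 1110 and 1556 in rat 2, and in rat 3 2380 and 1748, where it was lower in the left eye while the sum was higher. The eyes' sums overlapped and the sign of the difference was not shared by the 3 rats.

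**Figure D2:**
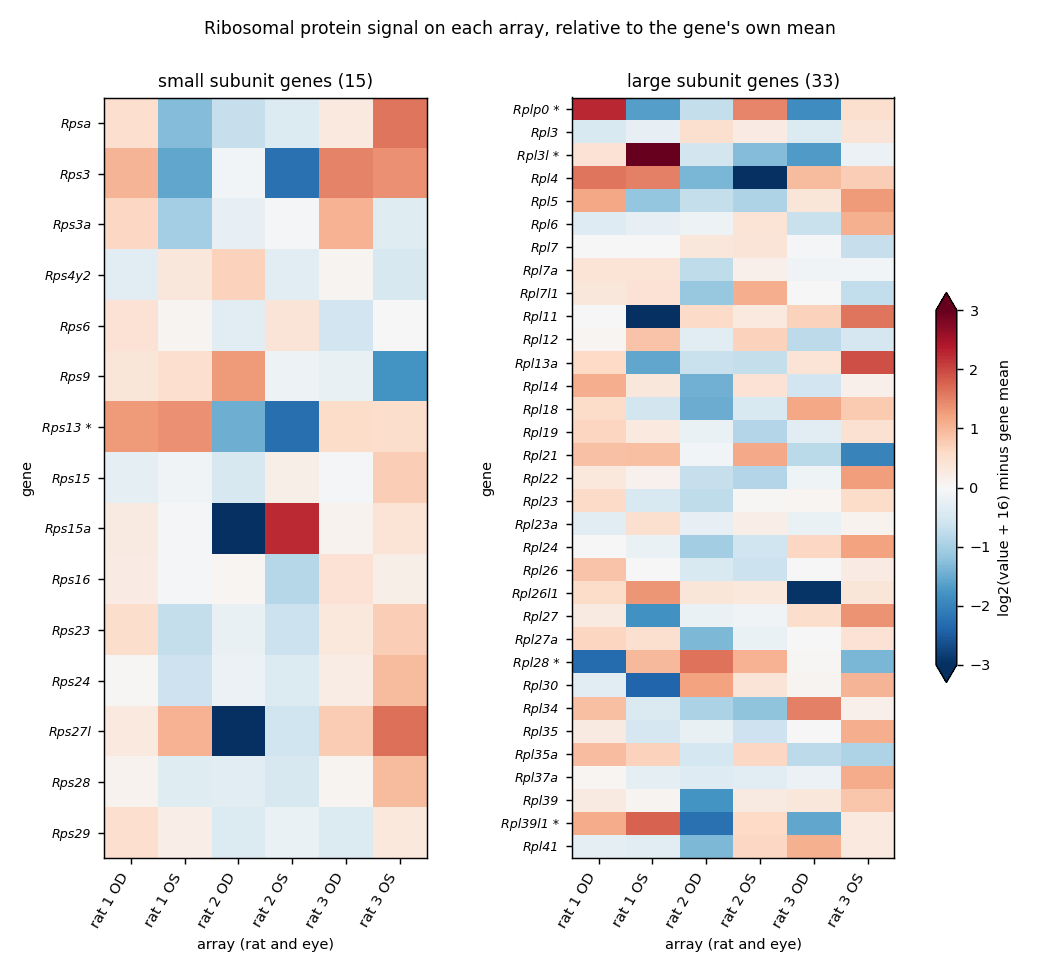
Signal of the 48 ribosomal protein genes on each of the 6 arrays, as log2(value + 16) minus the gene's own mean over the arrays, small subunit left and large subunit right; a star marks the 5 genes too dim to be tested. The left eye of rat 3 is above the gene mean for many genes, such as Rpl13a and Rpsa, while the left eye of rat 1 is below it for these genes.

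No ribosomal protein gene passed the test between the eyes. A difference was tested with limma over all 15521 probe sets at or above the median brightness, with rat as a block, and 43 members were among them. Of these, 0 had a Benjamini-Hochberg adjusted p under 0.05 (smallest 0.668), against 0.0129% of all tested probe sets, and 1 had an unadjusted p under 0.05, against 6.91%. The median left minus right difference over the 43 genes was 0.08 on the scale of log2(value + 16), with 20 genes lower and 23 higher in OS, against a median of -0.01 over all tested probe sets. Only 10 members had the same sign in all 3 rats (4 lower, 6 higher), against 28.5% of all probe sets. Small-subunit genes had a median of -0.06 (8 lower, 6 higher of 14) and large-subunit genes 0.25 (12 lower, 17 higher of 29). Without rat 1 the median of the 43 was 0.46, without rat 2 it was 0.00 (-0.0042), and without rat 3 it was -0.11.

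What the members did show was a different direction in different rats. In rat 1, 30 of the 43 were lower in OS, against 50.8% of all tested probe sets, and 13 were higher, against 49.2%. The median was -0.31. At least 2-fold lower were 12, against 22.2%, and at least 2-fold higher were 0, against 17.1%. Rat 2 had 19 lower in OS, against 49.5%, 24 higher, against 50.5%, and a median of 0.10. Of the members 10 were at least 2-fold higher there, against 24.1%, and 3 at least 2-fold lower, against 21.6%. In rat 3, 30 were higher in OS, against 51.8%, with a median of 0.49. There 7 were at least 2-fold higher, against 21.8%, and 4 at least 2-fold lower, against 21.6%. Lower in OS in rat 1 and also higher in OS in rat 3 were 22 of 43, against 23.9% of all probe sets; the reverse held for 5, against 21.4%. The 12 in rat 1 were Rpl5, Rpl11, Rpl13a, Rpl18, Rpl23, Rpl27, Rpl30, Rpl34, Rps3, Rps3a, Rps23 and Rpsa. Of these Rpl13a and Rpsa were also at least 2-fold higher in OS in rat 3, 2 of 43, against 3.66% of all probe sets. In rat 1 brighter probe sets in general were lower in OS. Of the 3509 tested probe sets above the background limit on all 6 arrays, 59.2% were lower (median -0.20), 631 at least 2-fold lower and 7.15% at least 2-fold higher. Among the 29 members above the limit on all 6 arrays, 22 were lower (75.9%, median -0.31), 8 at least 2-fold lower and 0 at least 2-fold higher. In rat 3, 22 of these 29 were higher in OS (75.9%), against 49.9% of the 3509, and 17 of the 29 were lower in rat 1 and higher in rat 3, against 25.3%. Per-rat values come from 1 array per eye and have no replicate. Quantile normalization reduced the rat 1 pattern to 22 lower and 21 higher, with a median of -0.01. The rat 2 median turned to -0.03, and in rat 3 32 were higher. Of all 15521 tested probe sets, 8021 were then lower in rat 1 and 7802 higher in rat 3. Lower in rat 1 and also higher in rat 3 were 17 members (39.5%), against 24.3%. Centring each array on its median left 35 lower in rat 1 and 29 higher in rat 3, against 8623 and 7070 of the 15521. After centring both held for 22 members (51.2%), against 22.9%.

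**Figure D3:**
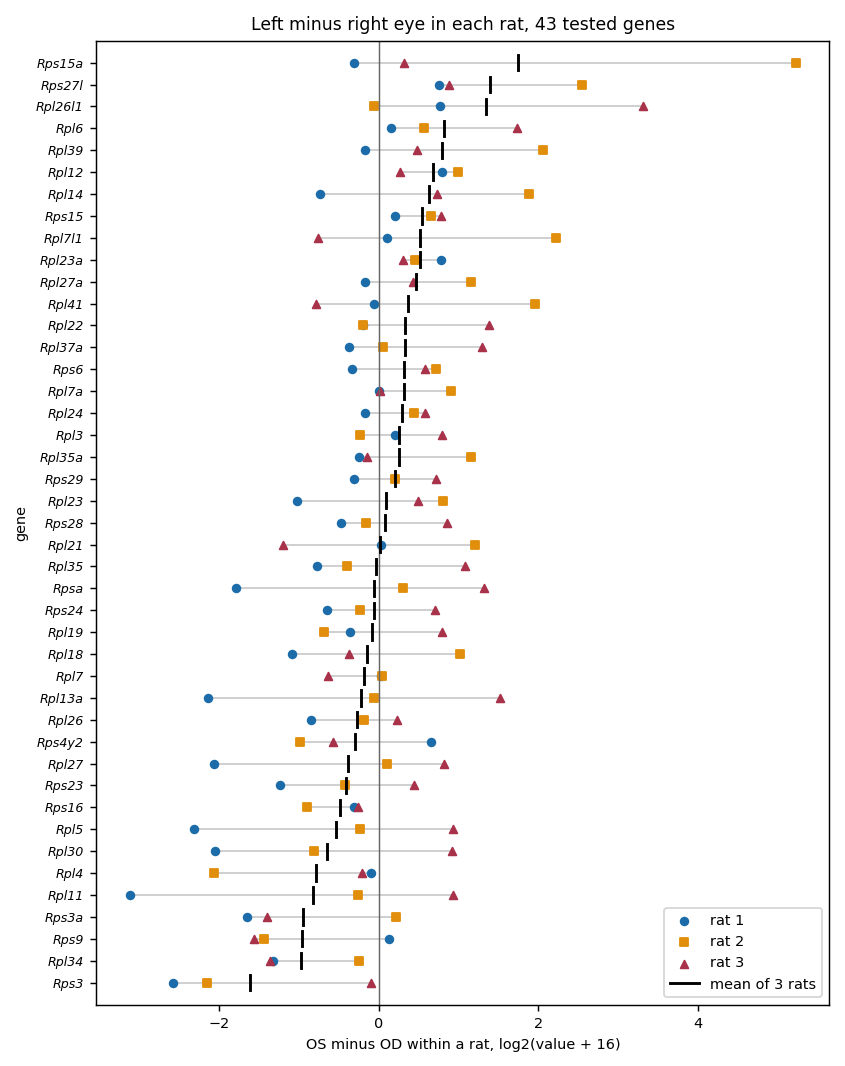
Left minus right difference in each rat, on the scale of log2(value + 16), for the 43 tested ribosomal protein genes, ordered by their mean; points are rats 1 to 3 and the black tick is the mean. The 3 rats lie on both sides of 0 for 33 of the genes, with rat 1 mostly to the left and rat 3 mostly to the right.

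Rpl13a, a large-subunit protein that in some cells also leaves the ribosome to repress particular mRNAs, had right and left values of 33328 and 7517 in rat 1, 13908 and 13344 in rat 2, and in rat 3 29302 and 83805. Pairs of values below are in the same order, right eye first. Left was below right in rat 1, near it in rat 2 and above it in rat 3, and the eyes overlapped. Its mean difference was -0.23 ± 1.84 (SD, n = 3 rats, limma adjusted p = 0.945). Rpsa, a small-subunit protein also described as a laminin receptor, followed the same order, at 9022 and 2591 in rat 1, 3906 and 4818 in rat 2, and in rat 3 7731 and 19372. The mean difference of Rpsa was -0.06 ± 1.59 (adjusted p = 0.989).

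Across the 6 arrays 7 of the other 42 tested members correlated with Rpl13a at r of at least 0.9, against 1.22% of the other tested probe sets. Other members ran against Rpl13a, with the lowest r for Rpl7 (-0.80), Rpl21 (-0.77), Rps9 (-0.76) and Rpl12 (-0.71). Rpl13a was taken as the reference after its values were seen, the points are eyes of only 3 rats on commonly scaled arrays, and no test was made. The 7 were Rpsa (0.99), Rps24 (0.97), Rpl35 (0.95), Rps23 (0.95), Rps28 (0.94), Rpl5 (0.94) and Rpl27 (0.93). Of these, Rps24 exceeded the background limit on only 3 of 6 arrays. Rps23, which lies at the decoding centre, had 15268 and 6472 in rat 1, 9084 and 6752 in rat 2, and in rat 3 13197 and 17855. For Rpl35, at the exit of the peptide tunnel, the values were 13770 and 8039, 9832 and 7425, and 11514 and 24438. Both were highest in the left eye of rat 3. The group holds genes of both subunits. Rpl13a, Rpl35, Rps23 and Rpl5 have start-site runs of at least 9 bases, and Rpsa, as printed, has a shorter one. Over all pairs of the 43 members the median r was 0.21, and 0.32 over the 29 above the limit on all arrays. Over all tested probe sets it was -0.02, and over the 3509 of them above the limit on all arrays 0.01.

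Rpl5 and Rpl11, which share the 5S ribosomal RNA particle, both had their lowest value in the left eye of rat 1, and neither passed the test. The lowest value was on that array also for Rpl13a, Rpsa, Rpl27, Rpl30, Rps23, Rps24 and Rps3a. Rpl5 had 3846 and 756 in rat 1, 1041 and 885 in rat 2, and in rat 3 2189 and 4173, a mean difference of -0.54 ± 1.65 (limma adjusted p = 0.866). Rpl11 had 549 and 48.7, 828 and 688, and 902 and 1731, a mean difference of -0.82 ± 2.08 (adjusted p = 0.863). The Rpl11 value of 48.7 is below the background limit of that array, 399.6, so the size of that difference is uncertain. Without rat 1 both means were positive, 0.35 for Rpl5 and 0.33 for Rpl11. The control probe set for 5S ribosomal RNA had 3801 and 5461 in rat 1, 2283 and 3678 in rat 2, and in rat 3 1140 and 1262. It was thus higher in OS within each rat, by 0.45 ± 0.28 on the log2 scale, as were 14.5% of all tested probe sets. It was lowest in rat 3 and, as a control probe set, was not in the test.

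**Figure D4:**
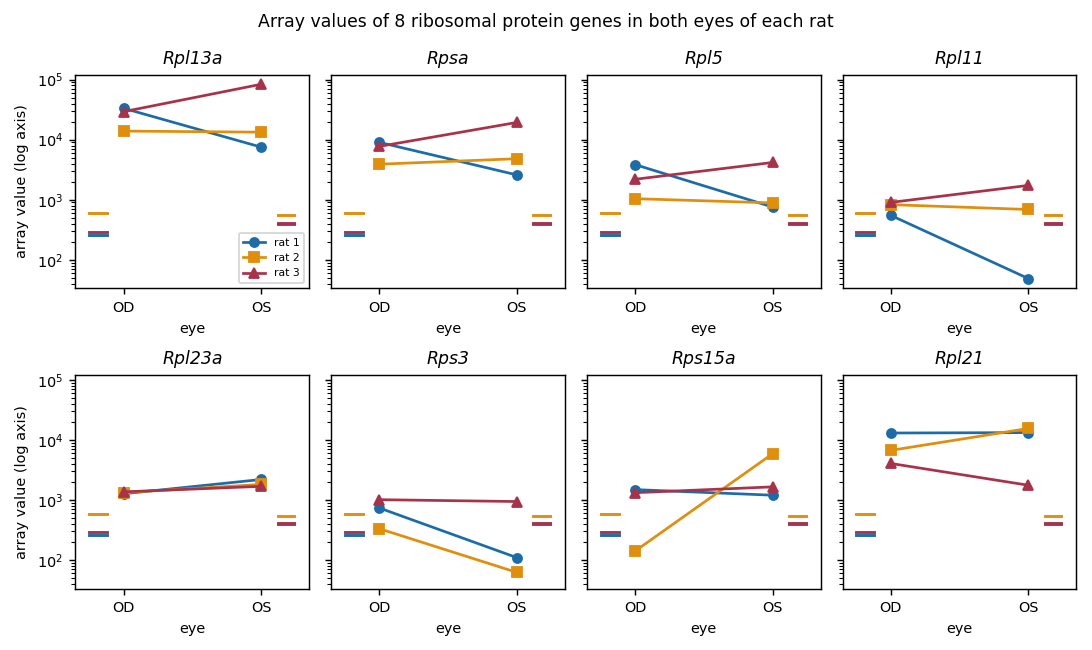
Array values (log axis) of 8 ribosomal protein genes in the right (OD) and left (OS) eye, with a line for each rat; short ticks at the sides are the background limits of the arrays. Rpl13a, Rpsa, Rpl5 and Rpl11 slope down in rat 1 and up in rat 3, Rpl23a slopes up in all 3 rats, and the steep line of Rps15a is rat 2.

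The 4 members that were lower in OS in all 3 rats were Rpl34, Rps3, Rps16 and Rpl4, against 14.0% of all tested probe sets. Rpl34, a large-subunit protein, had 2352 and 927 in rat 1, 645 and 538 in rat 2, and in rat 3 3621 and 1400, a difference of -0.98 ± 0.63 (limma adjusted p = 0.752). Its left-eye value in rat 2 was just below the background limit. Rps3, which lies where mRNA enters the small subunit, had 737 and 110, 333 and 62.3, and 1013 and 944, a difference of -1.61 ± 1.33 (adjusted p = 0.788), and exceeded the limit on 2 OD arrays and 1 OS array. Rps16, at the decoding site, had 2585 and 2075, 2250 and 1199, and 2961 and 2457, the smallest of these differences, -0.49 ± 0.35 (adjusted p = 0.851). Rpl4, which lines the peptide exit tunnel, had 1508 and 1413, 178 and 30.1, and 953 and 822, a difference of -0.79 ± 1.11 (adjusted p = 0.866). For each of the 4 the values of the eyes overlapped between rats.

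Higher in OS in all 3 rats were 6, against 14.5% of all tested probe sets, and none of them passed. Rpl23a, at the tunnel exit where chaperones and the signal recognition particle dock, was the only member whose eyes did not overlap, against 9.95% of all probe sets. It had 1271 and 2198 in rat 1, 1327 and 1819 in rat 2, and in rat 3 1369 and 1690, a difference of 0.51 ± 0.25 (limma adjusted p = 0.856). Rpl12, at the base of the stalk, had 4070 and 7089, 3148 and 6288, and 2272 and 2730, a difference of 0.69 ± 0.38 (adjusted p = 0.790). Rps15, a small-subunit protein, differed by 0.54 ± 0.30 (adjusted p = 0.867), from 811, 713 and 971 in OD to 934, 1130 and 1672 in OS. Differences for the large-subunit genes Rpl6 and Rpl7a were 0.81 ± 0.82 and 0.31 ± 0.52. For Rpl7a the values in rats 1 and 3 differed little, by 0.0028 and 0.02 on the log2 scale. The sixth, Rps27l, is given with the paralogs.

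Rps15a, a small-subunit gene, was the only member with an unadjusted p under 0.05 and is named after its values were seen. It had 1492 and 1203 in rat 1, 141 and 5893 in rat 2, and in rat 3 1325 and 1656. A single array, the right eye of rat 2, was far below the other 5, and its value lay under the background limit of 591. The mean difference was 1.75 ± 3.03 (limma adjusted p = 0.668; unadjusted p = 0.0297). Without rat 2 it was 0.01 (0.0059; adjusted p = 0.999). Without rat 1 its adjusted p was 0.0530 and without rat 3 it was 0.105.

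Other members with known roles outside peptide synthesis or at defined sites did not pass either. Rps6, the S6 kinase substrate, had 9075 and 7162 in rat 1, 5393 and 8889 in rat 2, and in rat 3 4508 and 6729, a difference of 0.32 ± 0.58 (limma adjusted p = 0.891). Rpl3, beside the peptidyl transferase centre, had 935 and 1080, 1802 and 1521, and 970 and 1692 (0.25 ± 0.52, adjusted p = 0.938). Rpl22 had 7701 and 6714, 3784 and 3303, and 5627 and 14654 (0.33 ± 0.91, adjusted p = 0.893), so that only rat 3 was higher in OS. Rpl41, the smallest ribosomal protein, had 2498 and 2400, 1193 and 4676, and 6425 and 3709 (0.37 ± 1.42, adjusted p = 0.896). These 4 differed in sign between rats.

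The stalk protein Rplp0, which anchors the P1 and P2 proteins that recruit elongation factors, was too dim to be tested. It had 715 and 32.3 in rat 1, 76.5 and 402 in rat 2, and in rat 3 25.5 and 196, and only the right eye of rat 1 exceeded its limit. The other 4 untested members were Rps13, Rpl28, Rpl3l and Rpl39l1. Each of these 4 exceeded the limit on 2 arrays at most. Rps13 ran from 26.2 to 505 and Rpl28 from 28.2 to 663 over the 6 arrays, with both extremes of Rpl28 in OD.

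The 5 paralogs exceeded the limit on 1 to 5 of the 6 arrays. Rpl3l, known from striated muscle, exceeded the limit only in the left eye of rat 1, at 1144, and ran from 21.2 to 147 on the other 5 arrays. Rpl39l1 had 423 and 674 in rat 1, 27.0 and 288 in rat 2, and in rat 3 51.9 and 232, above the limit in rat 1 only; its partner Rpl39, at the tunnel exit, had 3177 and 2822, 757 and 3209, and 3361 and 4697 (0.79 ± 1.15, limma adjusted p = 0.789). Rps27l, a target of p53, had 468 and 801, 28.9 and 246, and 658 and 1227, higher in OS in 3 of 3 rats by 1.40 ± 0.998 (adjusted p = 0.799), and both arrays of rat 2 were below the limit. Rpl26l1 had 859 and 1475, 749 and 718, and 61.5 and 753 (1.34 ± 1.76, adjusted p = 0.781), where the right eye of rat 3 was below the limit; its partner Rpl26 had 5912 and 3270, 2357 and 2077, and 3293 and 3850 (-0.27 ± 0.54, adjusted p = 0.917). Rpl7l1 differed by 0.52 ± 1.54 and Rpl7 by -0.19 ± 0.39, each with mixed signs. No paralog passed the test.

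Where a gene had several probe sets they often disagreed. This was the case for 4 of 6 such genes, whose probe sets had mean differences of opposite sign. Rpsa had -0.06 for its brightest probe set and 0.39 and 0.11 for the others. All 3 were higher in OS in rat 3, by 1.32, 1.25 and 0.79, while in rat 1 they gave -1.79, -0.15 and 0.49, so the low Rpsa value in the left eye of rat 1 was not shared by all 3. Rpl7l1 had 0.52 and -1.25, Rpl3 0.25 and -0.36, and Rps24 -0.06 and 0.86. Each Rps24 probe set exceeded the limit on 3 of 6 arrays.

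Probe sets that carry several symbols provide ribosomal protein signal that the choice of members did not use. Of 36, 24 exceeded the limit on all 6 arrays and 32 were tested. Of these 32, 0 passed (smallest limma adjusted p = 0.590), against 0.0129% of all tested probe sets. At an unadjusted p under 0.05 were 4, all higher in OS, against 6.91% of all tested probe sets (669 lower, 403 higher). The median difference over the 32 was 0.17. Their medians were -0.40 in rat 1, 0.87 in rat 2 and 0.34 in rat 3. In rat 1, 19 of 32 were lower in OS, against 50.8% of all tested probe sets. In rat 2 28 were higher, against 50.5%, and in rat 3 21 were higher, against 51.8%. The order of rats 1 and 3 was that of the members, while the rat 2 median was larger here. The signs of the 3 medians were the same after quantile normalization (-0.21, 0.88 and 0.58) and after centring (-0.53, 0.92 and 0.16). Of the array's RNA quality probe sets, the log2 ratio of 3' to 5' signal for beta-actin exceeded that of the right eye in all left eyes, by 1.79, 0.76 and 1.42 in rats 1 to 3. For Gapdh the same difference was 0.29, 0.90 and -2.58. The beta-actin differences were largest in rat 1 and smallest in rat 2. In the same rats the several-symbol medians were -0.40, 0.87 and 0.34 and the members' medians -0.31, 0.10 and 0.49. The part of RNA quality in the results was not tested.

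**Figure D5:**
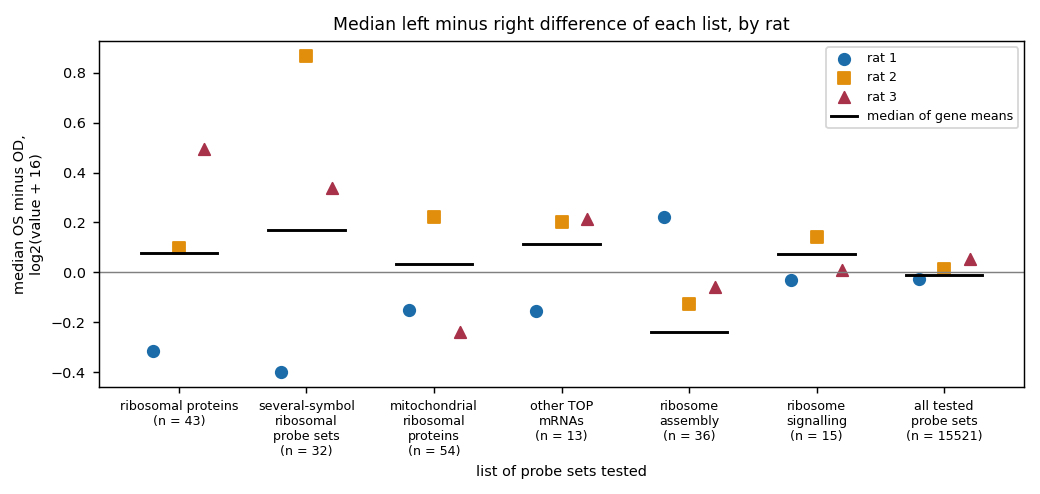
Median left minus right difference, on the scale of log2(value + 16), of each list of tested probe sets in rats 1, 2 and 3, with a line at the median of the gene means. Both ribosomal protein lists were below 0 in rat 1 and above 0 in rats 2 and 3, while all tested probe sets lay between -0.03 and 0.05. The other TOP mRNAs (-0.15, 0.20 and 0.21) and, nearer 0, the ribosome signalling genes (-0.03, 0.14 and 0.01) had the same signs.

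Levels of the members were also compared between rats, relative to the spread between the eyes of a rat. The limma F test over the rats, made in the same fit, called 1 of 43 members at an adjusted p under 0.05, against 2.51% of all tested probe sets, and 13 at an unadjusted p under 0.05, against 13.0%. The spread it is set against includes any effect of pressure, since 1 eye of each rat was treated. Rpl21, a large-subunit protein, was the member called (adjusted p = 0.0410). It had 13063 and 13270 in rat 1, 6708 and 15553 in rat 2, and in rat 3 4068 and 1764, so that both arrays of rat 3 lay below the other 4. Without rat 3 its adjusted p was 0.998, and it also missed the threshold with an offset of 1 (0.0592) and after centring (0.129). Without rat 1, 4 members were called (Rpl21, Rpl13a, Rpl18 and Rpsa), and calls over all probe sets also went up, from 390 to 620. Next came Rpl4 (adjusted p = 0.0551), with both arrays of rat 2 below the background limit, Rpl18 (0.248), Rpl13a (0.256), Rpl24 (0.268) and Rpl35a (0.271). Rpl24, at a bridge between the subunits, had 894 and 1220 in rat 2 but 1827 and 1621 in rat 1 and 2859 and 4297 in rat 3. Rpl35a had 39080 and 32950 in rat 1, 14270 and 31704 in rat 2, and in rat 3 11898 and 10711. Rpl18 had 2520 and 1176, 609 and 1251, and 3856 and 2973, highest in rat 3.

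Rat 2 had the lowest mean of the 3 rats for 25 of the 43 members (58.1%), against 35.5% of all tested probe sets, and rat 3 the highest for 24 (55.8%), against 37.9%. Among the 32 several-symbol probe sets rat 2 was lowest for 16, against 35.5% of all tested probe sets. Rat 3 was highest for 12 of them (37.5%), against 37.9%, and rat 1 for 14. In this list rat 3 was thus highest no more often than over all tested probe sets. After quantile normalization rat 2 was lowest for 14 and rat 3 highest for 7 of the list, and after centring for 16 and 14. For the members the same counts were 23 and 22 after quantile normalization and 27 and 24 after centring. Over all tested probe sets the shares were 35.6% and 38.2% after quantile normalization and 37.6% and 41.2% after centring. Rpl21 and Rpl35a went the other way, with their lowest mean in rat 3. Rat 2 was also the animal with the fewest probe sets above the background limit, 34.8% in OD and 34.9% in OS, and the part of this in its lower ribosomal protein signal was not tested.

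Other genes of ribosome production and control were counted in the same fit, and 0 of them passed between the eyes. Over all tested probe sets 0.0129% passed and 6.91% had an unadjusted p under 0.05. Mitochondrial ribosomal proteins, which serve the separate ribosome of that organelle, had 54 of 73 genes tested, 26 lower and 28 higher in OS, a median of 0.03, and 5 at an unadjusted p under 0.05. Their rat medians were -0.15, 0.22 and -0.24, so that in rat 3 they were not on the side of the cytosolic proteins, and their median pairwise r was 0.01. Mrps18c (2.07 ± 1.70), Mrpl22 (-1.85 ± 0.81) and Mrpl16 (-1.58 ± 0.83) had the smallest p, with limma adjusted p of 0.610, 0.636 and 0.672. Ribosome assembly genes, with 36 of 52 tested, had a median of -0.24 (19 lower, 17 higher, 5 at an unadjusted p under 0.05). They included Taf1d, of the RNA polymerase I factor SL1, at -1.65 ± 0.82 (limma adjusted p = 0.492), Nop10, of the H/ACA particle, at -1.59 ± 1.75, and Utp3 at 0.999 ± 0.65. Rat medians of the assembly genes were 0.22, -0.13 and -0.06.

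Of 23 other genes with TOP mRNAs, 13 were tested, 5 lower and 8 higher in OS, with a median of 0.11. Their rat medians were -0.15, 0.20 and 0.21, on the same sides of 0 as those of the cytosolic proteins. At an unadjusted p under 0.05 was 1, against 6.91% of all tested probe sets. That gene was Gas5, a noncoding RNA that hosts small nucleolar RNAs. It had 2453 and 677 in rat 1, 1340 and 383 in rat 2, and in rat 3 3925 and 949. Gas5 was lower in OS in 3 of 3 rats by -1.88 ± 0.14 and missed the threshold (limma adjusted p = 0.330). The values of the eyes did not overlap for Gas5, nor for 9.95% of all tested probe sets. Its left-eye value in rat 2 was below the background limit. The elongation factor subunit gene Eef1g was at 0.68 ± 1.07 and the initiation factor subunit gene Eif3f at -1.09 ± 1.52. Genes of signalling to the ribosome had 15 of 20 tested, 7 lower and 8 higher, and a median of 0.07. Their rat medians were also on those sides of 0, at -0.03, 0.14 and 0.01. An unadjusted p under 0.05 was found for 3, against 6.91% of all tested probe sets. These 3 were Mdm2 (-1.82 ± 1.76, adjusted p = 0.628), the S6 kinase gene Rps6kb1 (-2.04 ± 2.48, adjusted p = 0.662) and Eif4ebp1, a repressor of cap-dependent translation (1.73 ± 1.32, adjusted p = 0.705). Mdm2 and Eif4ebp1 had the same sign in all 3 rats and Rps6kb1 did not.

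Differences were also set out by the start-site run. The 20 tested members with a run of at least 9 bases had a median of 0.04, with -0.37, -0.11 and 0.60 in rats 1 to 3. For the 18 with shorter runs the median was 0.27, with -0.17, 0.37 and 0.37. Both sets were below 0 in rat 1 and above 0 in rat 3, and the difference between the sets was not tested.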

How the data were processed

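The authors deposited 1 linear intensity for each probe set on each array. GCOS is named in the submitters' processing notes, with no version. The trimmed mean (2% off each end) was 500.1 on all 6 arrays, so the values were taken as scaled by the authors. Of 31099 probe sets, 57 controls stayed out of the tests. Of the rest, 20826 had 1 gene symbol, 436 several and 9780 none. Gene identifiers of 46 of 48 members were found in the reference gene table.

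Differences were tested on log2(value + 16), which understates changes of dim genes, with limma 3.58.1 in R 4.3.3 (rat as fixed block, intensity trend, two-sided, Benjamini-Hochberg adjustment over 15521 probe sets, threshold 0.05). Residual degrees of freedom were 2 and those of the prior 19.38, so p-values rest largely on a variance pooled over probe sets. The fit was also run on simulated data. Their spreads were taken from the same fit, so they cannot check the pooled variance against the real arrays. SDs are over the 3 within-rat differences. Both eyes of a rat are paired because they come from the same animal; their deviations from the eye means correlated at 0.109, 0.122 and 0.326 in rats 1 to 3. The number of arrays limits the precision. Named members were those with the same sign in 3 of 3 rats (at most 12 per direction), proteins of known role, paralogs with partners, the 6 that differed most between rats, and up to 3 genes per companion list. Rps15a, Rpl13a as a reference and the genes that varied with it were chosen after their values were seen. The members and lists were chosen with earlier results of these data known.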

Additional observations from a re-analysis of the deposited data

Results flagged for a closer look

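Signal outside the comparisons was found for the pseudogene Rpl37-ps2, whose probe set exceeded the background limit in each of the 6 eyes. Rat 1 had 2752 (right) and 1794 (left), rat 2 had 2034 and 1966, and rat 3 had 3515 and 1715.7, the lowest. Left was lower in 3 of 3 rats, by -0.56 ± 0.49 (limma adjusted p = 0.826). The other pseudogene probe set, Rps4x-ps1, exceeded the limit on 0 arrays.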

How the results depend on the processing

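Under all 16 alternatives 0 ribosomal protein genes and 0 genes of the companion lists passed between the eyes. The count of all probe sets that passed was 2; it was 0 with an offset of 1, quantile normalization, centring on the array median, the filter at the 75th percentile, the control limit filter, no intensity trend, averaged probe sets, no replicate block and a random replicate block, and 1 with a robust prior. It was 9 when no probe set was filtered out, 9 when the offset was 64, 7 under array weights, and between 18 and 59 when any 1 rat was omitted. Without the replicate block the median over members stayed 0.08 and the smallest adjusted p of a member was 0.953. The median ran from -0.11 to 0.46 with 1 rat left out, was -0.0099 after centring and -0.06 with array weights, and was 0.21 with quantile normalization, 0.20 with the 75th percentile filter and 0.15 without a filter. For differences among rats, the count of 1 member became 2 with an offset of 64, quantile normalization or no filter, 0 with an offset of 1, centring, the 75th percentile filter, the control limit filter, no trend, a robust prior or averaged probe sets, and 0 to 4 with 1 rat left out. Among the named genes, 14 of 27 kept their sign throughout. Of 427 comparisons, 20 changed sign: Rpl13a was 0.050 and Rpl18 0.030 after quantile normalization, Rpl21 -0.074 after centring and -0.067 with array weights, and with averaged probe sets Rpl3 was -0.054, Rpl7l1 -0.36 and Rpsa 0.15. With 1 rat left out the ranges that crossed 0 were -1.70 to 0.33 for Rpl11, -1.10 to 0.73 for Rpl13a, -0.73 to 0.32 for Rpl18, -0.59 to 0.62 for Rpl21, -0.20 to 0.59 for Rpl22, -0.52 to 0.022 for Rpl26, -0.018 to 0.50 for Rpl3, -0.20 to 0.50 for Rpl35a, -0.42 to 0.95 for Rpl41, -1.28 to 0.35 for Rpl5, -0.31 to 0.036 for Rpl7, -0.33 to 1.16 for Rpl7l1 and -0.75 to 0.81 for Rpsa. Genes below the background limit on some arrays, such as Rps3, Rpl4 and Rps15a, have differences of uncertain size.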
